A study of Drosophila melanogaster with 10 samples.

Results

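The genes described here encode eukaryotic translation initiation factors (eIFs), taken as every Drosophila melanogaster gene whose current symbol or listed synonym starts with eIF. In the RefSeq annotation of Release 6, 50 genes matched, and 43 of them had a probe set that names no other gene, of 11981 such genes on the array. Of the 43, 40 carried an eIF symbol and 3 were found by a synonym only: CG7483 (eIF4A3), eEF5 (eIF5A) and kra (eIF5C). The other 7, AGO2, CG46312, Thor, eIF1A, eIF2alpha, eIF2gamma and eIF4H1, were not analysed here. Where a gene had several probe sets, the one with the highest mean stands for it.

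Total RNA came from SL2 cells, an established male Drosophila cell line of embryonic origin, and each of 10 samples was hybridised to 1 array. Double-stranded RNA (dsRNA) against the MBD-R2 transcript was given as construct M1 (3 samples) or construct M2 (3 samples), dsRNA against GST served as control (3 samples), and 1 sample received no dsRNA. Cells took up 10 µg of dsRNA in serum-free medium for 1 hour, and RNA was extracted after 7 days of further culture at 26 °C. MBD-R2 is a protein of the NSL chromatin complex, to which the histone acetyltransferase MOF also belongs. Knockdown names the treatment here: the MBD-R2 transcript was not analysed, and how far it was depleted was not checked.

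Initiation brings the small ribosomal subunit, carrying eIF3 and the initiator tRNA bound to eIF2 and GTP, to an mRNA whose cap is held by eIF4E, eIF4G and the helicase eIF4A. The subunit then scans to the start codon, GTP is hydrolysed with the help of eIF5, the large subunit joins with eIF5B, and eIF2B recharges eIF2 with GTP. Several of these factors have paralogs in the fly, and some of the paralogs, such as eIF4E3 and eIF4G2, are known for roles in the male germ line.

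All values are log2 expression values deposited by the authors, so a difference of 1 is a factor of 2 and each probe set has its own scale. On each array 50.5% to 53.1% of probe sets were within 0.1 of 2.22, the lowest table value, while array maxima were 16.12 to 16.50. All 9 haemocyte markers, the cell type SL2 cells resemble, were at 4 or more in every array, and the muscle marker Mlc2, the neuronal marker nSyb and the germline marker vas were at or next to the lowest value. The other neuronal marker measured, elav, was at 5.84 to 8.85 over all arrays, highest in replicate 3 of M1 (8.80) and of M2 (8.85), with a change of 1.06 ± 0.57 (SE; limma, adjusted p = 0.229; 0.0188 with the replicate number as a block). NimC1, a haemocyte phagocytosis receptor, rose by 2.20 ± 0.27 (SE) in the knockdown (limma, adjusted p = 0.000633). The other haemocyte markers moved less and in both directions. Means with GST and in the knockdown arrays were 14.26 and 13.67 for Pxn, 14.67 and 14.37 for vkg, and 12.50 and 12.80 for eater. The germline gene bam was at 2.25 in the GST arrays but at 4.51 and 4.54 in replicate 3 of M1 and of M2. The part of such shifts in the results for initiation factors was not tested. Replicate 3 of each group stood apart from replicates 1 and 2, as set out further on. Of the 43 genes, 36 reached the mean of 4 required for testing, and 7 paralogs did not.

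Of the 36 tested initiation factor genes, 3 changed when M1 and M2 together were compared with GST: eIF4E6 fell, and eIF6 and eIF2D rose (limma, adjusted p under 0.05). That is 8.33% of them, where 25.3% of all 7298 tested probe sets passed, 7.85% higher and 17.4% lower. eIF4E6 reached the filter only through the arrays without MBD-R2 dsRNA, so a difference between its groups was built into its being tested. With no filter on low values, over all 18769 gene probe sets, its adjusted p was 0.00057. The 33 others had changes of -0.56 (eIF3k) to 0.73 (eIF4G2) and adjusted p of 0.062 to 0.995. The changes of 31 of the 36, or 86.1%, lay within 0.5 of 0, against 59.5% of all tested probe sets. The median change was -0.05, beside -0.03 over all tested probe sets. The arrays measure the RNA of whole cultures, so a change in the share of cells that express a gene and a change in RNA per cell cannot be told apart. A p that misses the threshold does not show that a gene kept its level: the median half-width of the 95% intervals was 0.42, and the interval lay within 0.5 of 0 for 9 of the 36 genes.

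**Figure D1:**
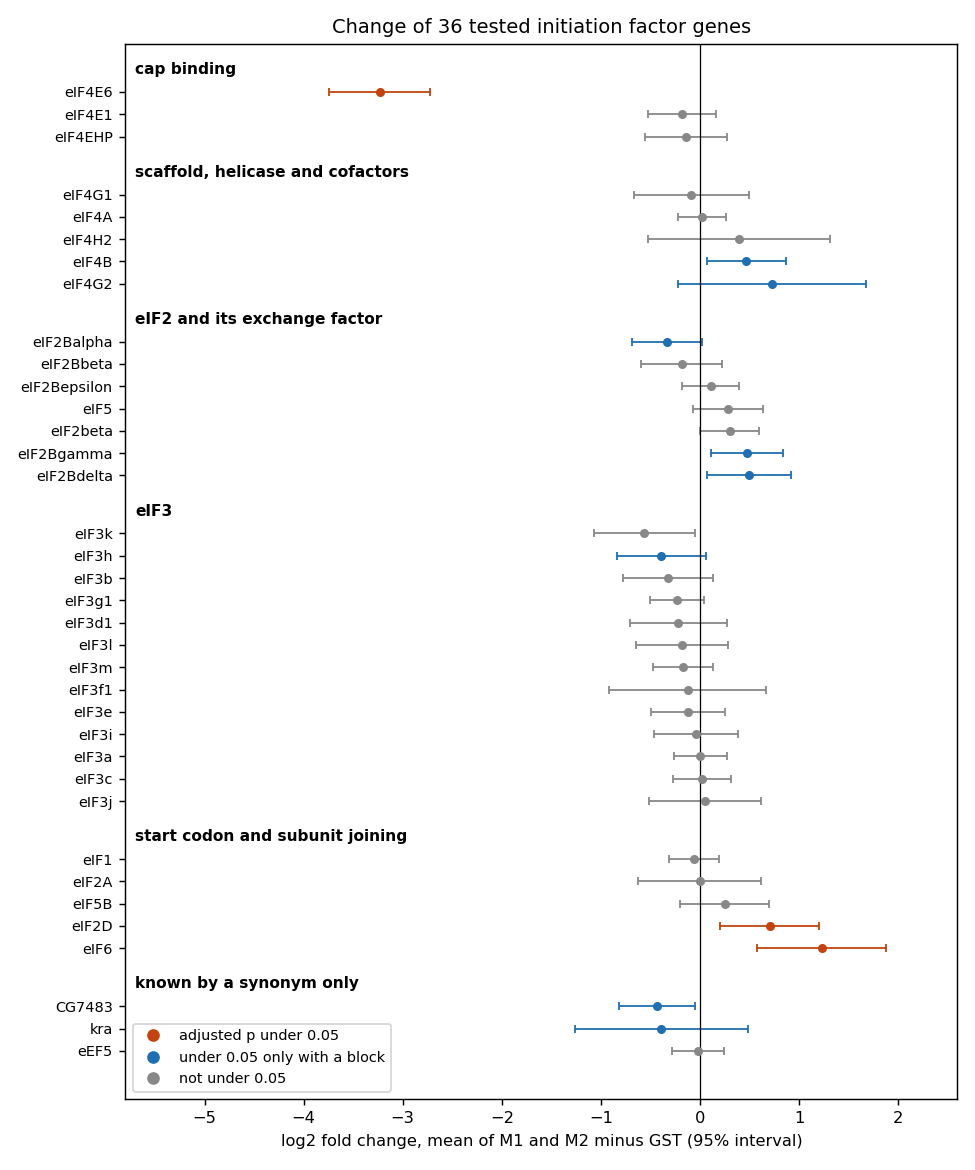
Change of each tested initiation factor gene, as the mean log2 value of M1 and M2 minus that of GST, with its 95% interval from limma, grouped by role. eIF4E6 at -3.23 and eIF6 at 1.23 lie farthest from 0, and the genes not called lie between -0.56 and 0.73.

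The cap-binding eIF4E family held the largest change among the tested members. eIF4E6, a paralog of the major cap-binding protein, on chromosome arm 3R, was at 6.62, 7.02 and 6.96 in GST replicates 1, 2 and 3. It was at 6.81 without dsRNA, at 2.84, 3.58 and 3.63 with M1, and at 4.20, 3.90 and 3.66 with M2. Every knockdown array lay below every GST array and below the array without dsRNA, and the groups did not overlap. Group means were 6.87 ± 0.22 (SD, n = 3) for GST, 3.35 ± 0.44 for M1 and 3.92 ± 0.27 for M2.

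eIF4E6 fell by 3.23 ± 0.22 (SE) on the log2 scale, 9.40-fold lower, with a 95% interval of -3.74 to -2.72 and an adjusted p of 4.4e-05 (limma). With M1 alone it fell by 3.52 ± 0.26 (adjusted p = 9.7e-05), and with M2 alone it fell by 2.95 ± 0.26 (adjusted p = 0.00023). With no filter the adjusted p were 0.00092 for M1 and 0.0019 for M2. With spike-in centring the M2 comparison gave -2.48 and was not called (adjusted p = 0.157). The knockdown means lay under the filter of 4, and no detection call was used here, so the fold is a ratio of GCRMA values, and whether the lower values stood above background was not tested. No annotated gene overlaps eIF4E6.

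eIF4E1, the major cap-binding protein of the fly, was at 12.05, 11.96 and 11.94 with GST and at 11.81 without dsRNA. It was at 11.90, 11.97 and 11.58 with M1, and at 11.86, 11.95 and 11.55 with M2. The groups overlapped, with the replicate 3 arrays of M1 and M2 lowest. Its change was -0.18 ± 0.15 (SE), with an interval of -0.52 to 0.16 and an adjusted p of 0.438 (limma).

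eIF4EHP, which binds the cap without recruiting eIF4G and acts in repression of specific mRNAs, was at 7.65, 7.73 and 8.36 with GST and 8.32 without dsRNA. It was at 7.72, 7.96 and 7.74 with M1, and at 7.66, 7.85 and 7.72 with M2. The groups overlapped, and GST replicate 3 and the array without dsRNA were the high ones. Its change was -0.14 ± 0.18 (SE; limma, adjusted p = 0.65), and its other probe set gave 0.14 ± 0.36, the opposite sign. The gene overlaps Syx1A and CG10694 in the annotation.

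The 4 remaining cap-binding paralogs, eIF4E3, eIF4E4, eIF4E5 and eIF4E7, did not reach the filter. eIF4E4, eIF4E5 and eIF4E7 were within 0.1 of the lowest table value in every array. eIF4E3, known for its role in spermatogenesis, was at 2.30 in all 3 GST arrays, at 2.37, 2.30 and 2.30 with M1, and at 2.35, 2.31 and 2.81 with M2. Only the M2 replicate 3 array stood above the others for this gene.

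**Figure D2:**
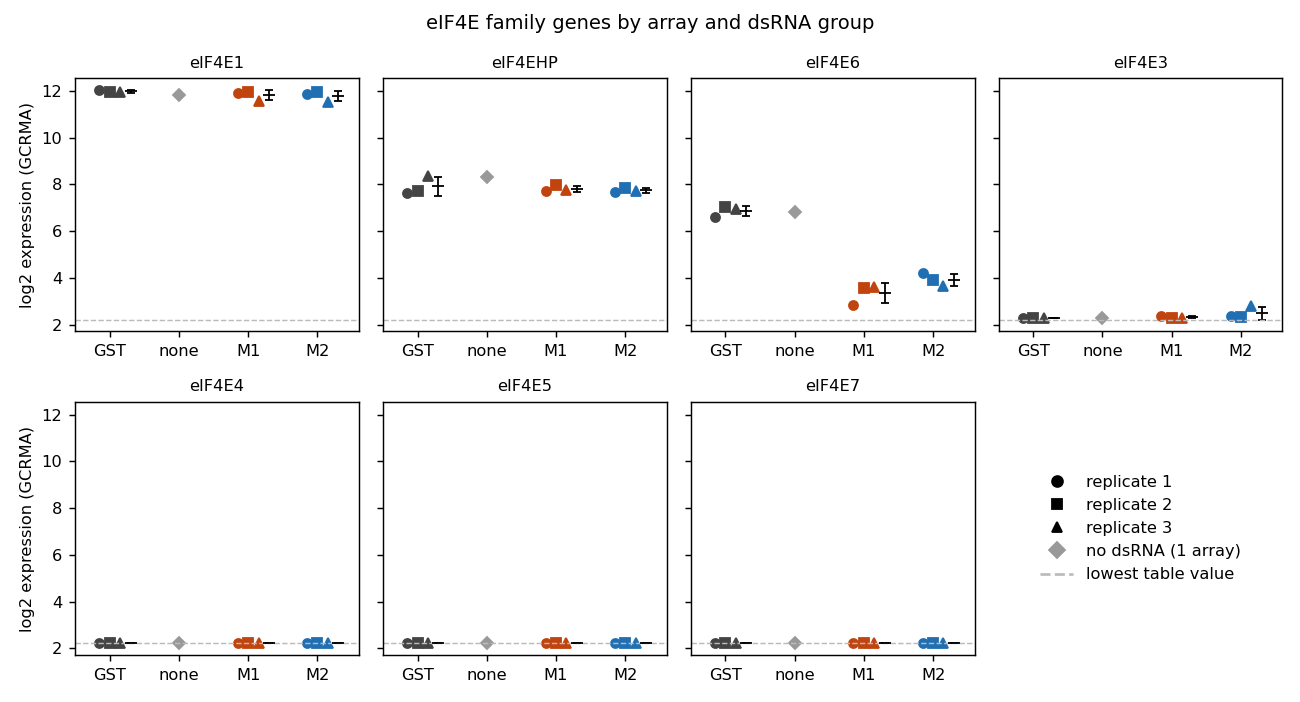
Log2 values of the 7 eIF4E family members in each of the 10 arrays, by group, with points for arrays, bars for the group mean ± SD (n = 3) and a dashed line at the lowest table value. eIF4E6 drops from 6.62 to 7.02 with GST to 2.84 to 4.20 in the knockdown arrays, the groups of eIF4E1 and eIF4EHP overlap, and the other 4 genes sit at or near the dashed line.

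The change of a paralog was set against that of its major gene by taking the difference of their log2 values in each array. Of 13 pairs listed, 5 had both genes above the filter and were tested by an exact two-sided permutation test over the 9 dsRNA arrays. The difference eIF4E6 minus eIF4E1 moved by -3.05 between GST and knockdown (exact p = 0.0119, the smallest that 84 splits allow; 0.0298 adjusted over the 5 pairs). Permuting within replicate numbers only gave an exact p of 0.037 and an adjusted p of 0.0926, and with replicates 1 and 2 alone the difference was -3.11 with an adjusted exact p of 0.167. Those designs allow few rearrangements, so the size is the more useful value there. eIF4E6 thus fell by more than eIF4E1 did in the full permutation, while eIF4EHP minus eIF4E1 moved by 0.04 (exact p = 0.833, adjusted p = 0.964). eIF4E6 reached the filter only through the arrays without MBD-R2 dsRNA, so a difference between its groups was built into its pair being tested.

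Among the scaffolds and helicases, no gene changed without a block for the replicate number, where 25.3% of all tested probe sets did. eIF4G1, the main scaffold that joins eIF4E, eIF4A and eIF3, lies on chromosome 4 and was at 12.96, 12.41 and 13.12 with GST and 13.32 without dsRNA. It was at 12.36, 12.66 and 13.12 with M1 and at 12.57, 12.54 and 13.21 with M2, and the groups overlapped fully. Its change was -0.09 ± 0.25 (SE; limma, adjusted p = 0.857).

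eIF4G2, the scaffold paralog known for meiosis in the testis, was at 7.71, 6.97 and 8.45 with GST and at 8.53 without dsRNA. It was at 8.10, 8.13 and 9.16 with M1 and at 8.17, 7.93 and 9.11 with M2. Within each replicate number both knockdown arrays lay above the GST array, but the groups overlapped because replicate 3 was high in all of them. The change was 0.73 ± 0.41 (SE; limma, adjusted p = 0.254), and with the replicate number as a block it was 0.73 ± 0.14 (adjusted p = 0.0056). The gene overlaps CG33111 and CG34355 in the annotation, and signal from their transcripts was not told apart.

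eIF4G2 minus eIF4G1 moved by 0.81 (exact permutation p = 0.0119, adjusted p = 0.0298), so the scaffold paralog rose relative to the main scaffold. Within replicate numbers the adjusted p was 0.0926, and with replicates 1 and 2 alone the difference was 0.90 with an adjusted exact p of 0.167. As for eIF4E6, those designs allow few rearrangements. With replicates 1 and 2 alone no exact p under 0.05 is possible, so the size is the more useful value. NAT1, an eIF4G relative that lacks the eIF4E-binding region, had a change of -0.08 ± 0.31 (SE; limma, adjusted p = 0.898), and NAT1 minus eIF4G1 moved by 0.01 (exact permutation p = 0.964).

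eIF4A, the helicase that unwinds the leader of mRNAs, varied little: it was at 15.33, 15.30 and 15.28 with GST, 15.41 without dsRNA, 15.25, 15.32 and 15.40 with M1, and 15.35, 15.30 and 15.33 with M2. Its change was 0.02 ± 0.11 (SE), with an interval of -0.23 to 0.27 (limma, adjusted p = 0.923). CG7483, the eIF4A3 helicase of the exon junction complex, was at 9.46, 9.95 and 9.74 with GST, 9.57 without dsRNA, 9.55, 9.29 and 9.15 with M1, and 9.38, 9.31 and 9.03 with M2. One M1 array lay within the GST range and the 5 others below it. Its change was -0.43 ± 0.17 (SE; limma, adjusted p = 0.0963), and CG7483 minus eIF4A moved by -0.45 (exact permutation p = 0.0357, adjusted p = 0.0595).

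eIF4H2, of the family that stimulates eIF4A, was at 4.97, 5.20 and 6.63 with GST, 6.72 without dsRNA, 5.80, 5.83 and 6.60 with M1, and 5.60, 5.73 and 6.42 with M2. GST replicates 1 and 2 lay below every knockdown array, and GST replicate 3 and the array without dsRNA above all of them. The change was 0.40 ± 0.40 (SE; limma, adjusted p = 0.541).

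**Figure D3:**
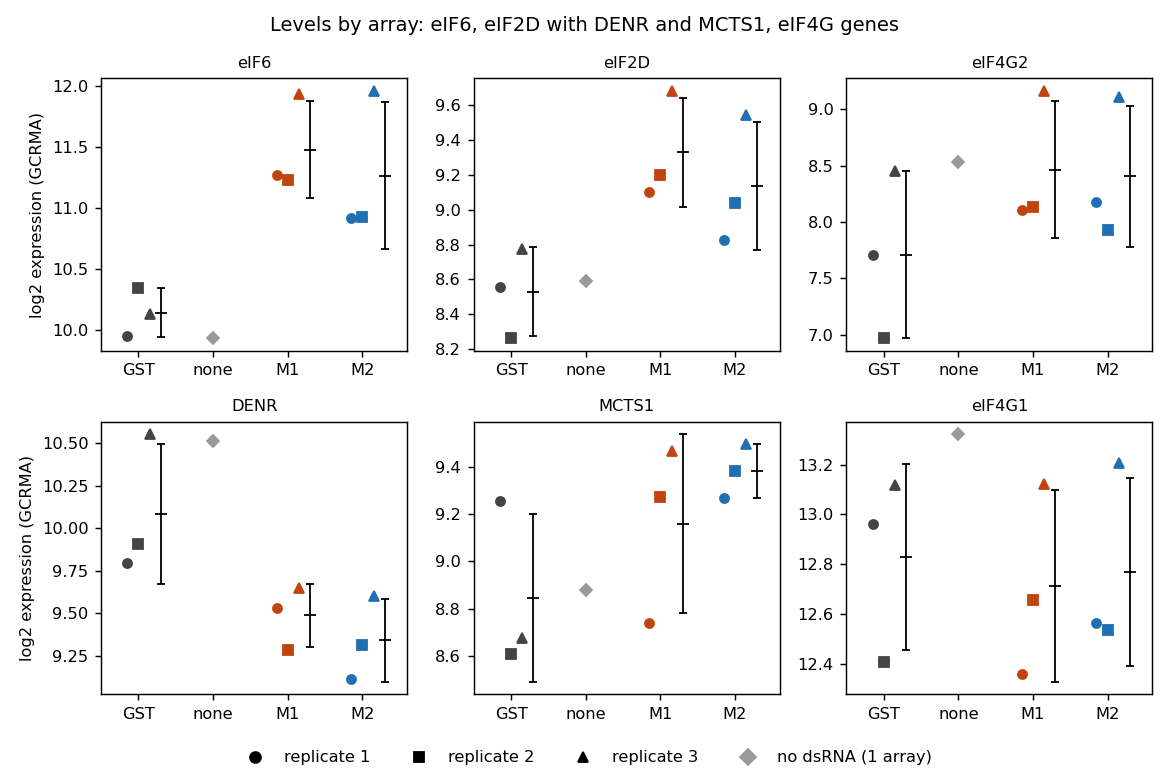
Log2 values in each array for eIF6, eIF2D, eIF4G2, DENR, MCTS1 and eIF4G1, by group, with points for arrays and bars for the group mean ± SD (n = 3). All 6 knockdown arrays lie above the 3 GST arrays for eIF6 and eIF2D and below them for DENR, and the groups overlap for eIF4G2, MCTS1 and eIF4G1.

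eIF4B, the RNA-binding cofactor of eIF4A, had 4 probe sets. The one with the highest mean was at 10.74, 10.58 and 10.19 with GST, 10.30 without dsRNA, 10.89, 10.83 and 11.16 with M1, and 10.88, 10.84 and 11.23 with M2. All knockdown arrays lay above all GST arrays for this probe set, and its change was 0.47 ± 0.17 (SE; limma, adjusted p = 0.0864).

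The other tested probe sets of eIF4B had changes of 0.77 ± 0.38 and 0.60 ± 0.65 (SE; limma, adjusted p = 0.187 and 0.579). With the replicate number as a block their adjusted p were 0.0031 and 0.0048, and that of the probe set with the highest mean, which stands for the gene, was 0.0645. GST replicate 3 differed from the mean of GST replicates 1 and 2 by -0.48, 0.81 and -1.93 in these 3 probe sets, so the probe sets of 1 gene disagreed on how replicate 3 differed while agreeing on the sign of the knockdown difference. The probe set below the filter ranged from 2.79 to 3.10 with GST and from 3.53 to 4.98 in the knockdown arrays. eIF4B overlaps the non-coding genes lncRNA:CR46482 and CR14578.

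**Figure D4:**
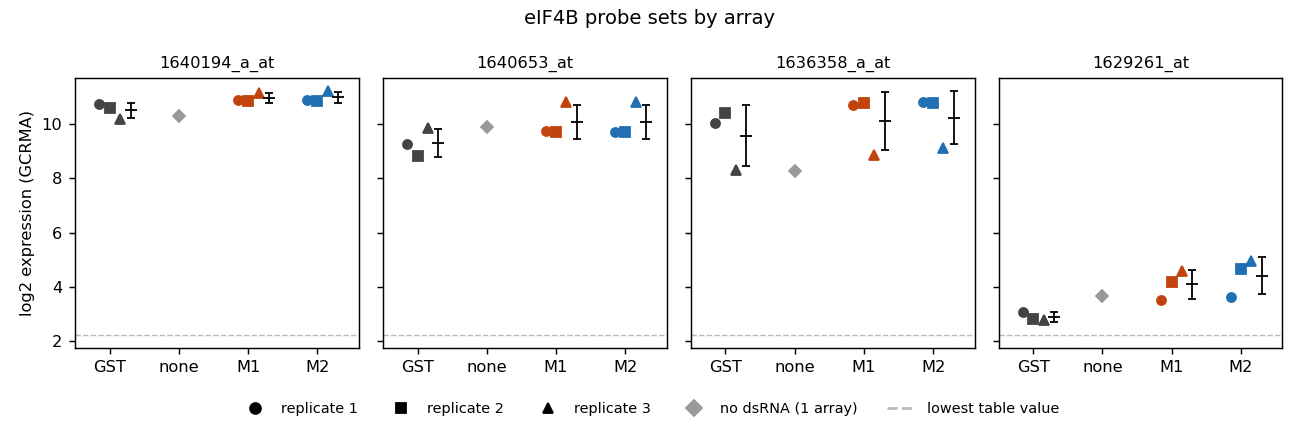
Log2 values of the 4 eIF4B probe sets in each array, by group, with bars for the group mean ± SD (n = 3). In every probe set each knockdown array lies above the GST array of its replicate number, while GST replicate 3 lies above GST replicates 1 and 2 in 1 probe set and below them in the 3 others.

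Among the 7 tested genes of eIF2 and its exchange factor eIF2B, none changed without a block, where 25.3% of all tested probe sets did. The changes of the 7 had a median of 0.28 and a range of -0.34 (eIF2Balpha) to 0.49 (eIF2Bdelta). eIF2Bdelta, a regulatory subunit, was at 9.64, 9.65 and 9.30 with GST, 9.16 without dsRNA, 10.26, 10.21 and 9.73 with M1, and 10.17, 10.08 and 9.70 with M2. All knockdown arrays lay above all GST arrays, and the change was 0.49 ± 0.18 (SE; limma, adjusted p = 0.0882; 0.0059 with the replicate block).

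eIF2Bgamma, of the catalytic part of eIF2B, was at 9.07, 8.98 and 8.57 with GST, 8.57 without dsRNA, 9.39, 9.27 and 9.52 with M1, and 9.17, 9.22 and 9.50 with M2. The groups did not overlap here either, and the change was 0.47 ± 0.16 (SE; limma, adjusted p = 0.0624; 0.047 with the block). eIF2Balpha, another regulatory subunit, went the other way with a change of -0.34 ± 0.15 (SE; limma, adjusted p = 0.158). Its arrays were at 8.57, 8.55 and 8.53 with GST, 8.60 without dsRNA, 8.19, 8.08 and 8.54 with M1, and 8.40 or lower with M2. The M1 replicate 3 array lay within the GST range and the other 5 below it. None of these 3 subunits passed without a block. Centred on the spike-in controls with GST replicate 2 left out, all 7 genes of the group were below 0, where the median of all tested probe sets was -0.62. eIF2beta, which with the subunits not analysed here carries the initiator tRNA, had a change of 0.30 ± 0.13 with groups that did not overlap, and eIF5, the activator of GTP hydrolysis, had a change of 0.28 ± 0.15 (SE; limma, adjusted p = 0.138 and 0.23). eIF2Bbeta and eIF2Bepsilon had changes of -0.19 and 0.11 (limma, adjusted p = 0.515 and 0.605).

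eIF3, the large complex that holds the small subunit and mRNA together, had 16 genes, of which 13 were tested. None changed without a block, where 25.3% of all tested probe sets did. The median change of the 13 was -0.17, 10 of 13 were below 0, and they ranged from -0.56 (eIF3k) to 0.05 (eIF3j). That direction depended on the scaling: centred on the spike-in controls, 3 of 13 were below 0 with a median of 0.07, while the median of all tested probe sets moved from -0.03 to 0.21. That centring moves the change of every probe set by the same amount. It rests on the median of 9 spike-in probe sets in each array. This median was 12.77 in GST replicate 2, 11.85 in M1 replicate 1 and 9.82 to 10.89 in the other arrays. Quantile normalisation put 12 of 13 below 0, with a median of -0.19. Dropping GST replicate 2 from the spike-in centring put all 13 below 0, with a median of -0.71 where that of all tested probe sets was -0.62.

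eIF3k, a subunit outside the conserved core, was at 12.21, 13.11 and 12.62 with GST, 12.52 without dsRNA, 12.41, 11.90 and 11.91 with M1, and 12.20, 11.94 and 12.15 with M2. GST replicate 1 lay among the knockdown arrays. The change was -0.56 ± 0.22 (SE; limma, adjusted p = 0.105). It was -0.78 with an adjusted p of 0.0463 without GST replicate 1, and -0.33 without GST replicate 2. Over the limma fits that each left out 1 array, the highest adjusted p was 0.351. By replicate number the change was 0.10, -1.19 and -0.59. The gene overlaps Tbp.

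eIF3h was at 13.24, 13.19 and 12.98 with GST, 12.88 without dsRNA, 12.89, 12.94 and 12.42 with M1, and 12.91, 12.99 and 12.34 with M2. Only M2 replicate 2 reached the lowest GST value. Its change was -0.39 ± 0.20 (SE; limma, adjusted p = 0.197; 0.026 with the replicate block).

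eIF3g1, an RNA-binding subunit, was at 14.16, 14.41 and 14.24 with GST, 14.26 without dsRNA, 14.14, 14.04 and 14.03 with M1, and 14.10, 13.99 and 13.95 with M2. All knockdown arrays lay below all GST arrays, and its change was -0.23 ± 0.12 (SE; limma, adjusted p = 0.201). eIF3f1 was at 12.81, 12.81 and 11.84 with GST, 11.79 without dsRNA, 12.71, 12.65 and 11.83 with M1, and 12.60, 12.70 and 11.68 with M2. Here the replicate number separated the arrays and the dsRNA did not, with a change of -0.12 ± 0.34 (SE; limma, adjusted p = 0.852). eIF3d1, the subunit that can contact the cap, had a change of -0.22 ± 0.21 (SE; limma, adjusted p = 0.528). The paralogs eIF3d2, eIF3f2 and eIF3g2 were within 0.1 of the lowest table value in all arrays, so no change of theirs could be set against that of the major gene.

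Of the 5 genes of start codon recognition and subunit joining, 2 rose, where 7.85% of all tested probe sets did. eIF6, which binds the large ribosomal subunit and keeps it from joining too early, was at 9.95, 10.35 and 10.13 with GST and 9.94 without dsRNA. It was at 11.27, 11.23 and 11.94 with M1, and at 10.92, 10.92 and 11.96 with M2. All knockdown arrays lay above all GST arrays, with replicate 3 of both constructs highest.

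eIF6 rose by 1.23 ± 0.28 (SE), 2.34-fold, with an interval of 0.58 to 1.88 (limma, adjusted p = 0.0141). The rise was 1.34 ± 0.33 with M1 and 1.12 ± 0.33 with M2 (limma, adjusted p = 0.022 and 0.0463). Of all tested probe sets, 387 (5.30%) rose more. The call was lost without GST replicate 1, at an adjusted p of 0.0621, and with values centred on the spike-in controls, at 1.47 with an adjusted p of 0.482. With the replicate block the adjusted p was 0.0029. Its annotated overlap is with ytr, whose own probe set changed by 0.14 ± 0.13 (SE; limma, adjusted p = 0.476).

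eIF2D, which delivers tRNA to the small subunit and acts in reinitiation and ribosome recycling, was at 8.55, 8.26 and 8.77 with GST and 8.59 without dsRNA. It was at 9.10, 9.20 and 9.68 with M1, and at 8.83, 9.04 and 9.54 with M2. The groups did not overlap, although the lowest M2 array was close to the highest GST array. eIF2D rose by 0.70 ± 0.22 (SE), 1.63-fold, with an interval of 0.21 to 1.20 (limma, adjusted p = 0.0469). Neither construct alone gave a call, at 0.80 ± 0.25 with M1 and 0.61 ± 0.25 with M2 (limma, adjusted p = 0.058 and 0.14).

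The eIF2D call was close to the threshold and was lost in 8 of 10 fits that each left out 1 array, all but those without M2 replicate 1 and without the array that had no dsRNA. Its adjusted p was 0.168 without GST replicate 2 and 0.0036 with the replicate block. Centred on the spike-in controls with GST replicate 2 left out, the change was 0.015 (adjusted p = 0.985), where the median of all tested probe sets was -0.62. eIF2D overlaps Pglym78, a phosphoglycerate mutase gene that rose by 0.52 ± 0.15 (SE; limma, adjusted p = 0.0389). The part of that overlap in the eIF2D values was not tested. eIF1, which guards start codon choice, eIF2A and eIF5B had changes of -0.06, 0.00 and 0.25, with adjusted p of 0.421 or more (limma).

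Of the 3 genes found by a synonym, none changed without a block, where 25.3% of all tested probe sets did. kra, the eIF5C protein related to eIF5, was at 10.65, 10.51 and 11.70 with GST, 11.64 without dsRNA, 10.12, 10.34 and 11.24 with M1, and 10.19, 10.27 and 11.21 with M2. Within each replicate number the knockdown arrays were lower, and replicate 3 was higher throughout. Its change was -0.39 ± 0.38 (SE; limma, adjusted p = 0.529; 0.023 with the replicate block). eEF5, now classed as an elongation factor that helps ribosomes past difficult peptide bonds, had a change of -0.02 ± 0.11.

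The constructs were also set against each other and against the untreated culture. With M1 alone and with M2 alone, eIF4E6 and eIF6 passed the test, 2 of 36 in each case, where 20.4% of all probe sets passed with M1 and 18.8% with M2. With the replicate block, 6 of 36 passed with M1 (37.4% of all probe sets) and 7 with M2 (36.3%), and with the array-set block, which is described with the replicate numbers, 8 (42.2%) and 9 (41.3%). Both comparisons use the same GST arrays. The change had the same sign with both constructs for 33 of the 36 genes. Between M2 and M1, 0 of 36 passed in limma, none had an unadjusted p under 0.05, and 0% of all tested probe sets passed. The differences ran from -0.21 (eIF6) to 0.57 (eIF4E6), 35 of 36 were within 0.5, and the median half-width of their 95% intervals was 0.48. For eIF4E6 every M2 array lay above every M1 array, and the interval of the difference was -0.02 to 1.16 (limma, unadjusted p = 0.056).

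Against GST, the single array without dsRNA gave 0 calls among the 36 genes in limma, none with an unadjusted p under 0.05, and 0% of all tested probe sets passed. For 29 of the 36 genes it lay nearer to GST replicate 3 than to the mean of GST replicates 1 and 2. The fit lends this lone array the spread of the replicated groups.

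Replicate numbers ran through many of these values. Arrays with the same number deviated from their group means together (r of 0.34 to 0.93 over 9 pairs across probe sets). Replicates 1 and 2 also resembled each other (0.55 to 0.75 over 6 pairs). Replicate 3 against replicate 1 or 2 gave -0.89 to -0.54 over 12 pairs. The deviations of a group's arrays cancel, so that negative sign follows from the positive values and adds no evidence of its own. The replicates are separate biological samples per the design text, and what sets replicate 3 apart is not given in the sources used here.

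With the replicate number as a block, 8 of 36 initiation factor genes passed (22.2%), where 43.7% of all tested probe sets did, 18% higher and 25.7% lower. eIF2Bdelta, eIF2Bgamma, eIF2D, eIF4G2 and eIF6 rose in that fit, and eIF3h, eIF4E6 and kra fell. With a block for replicates 1 and 2 against replicate 3 and the array without dsRNA (the array-set block), 11 of 36 passed (30.6%), where 48.5% of all probe sets did, 20.3% higher and 28.2% lower. That fit added eIF4B among the rises and CG7483 and eIF2Balpha among the falls. No label gives that grouping: it was drawn from the values, control probe sets included, with earlier results of these data known. In each of the 3 designs the share of initiation factor genes called lay below the share of all probe sets. Without any model, 6 of 36 had all knockdown arrays above all GST arrays (10.7% of all probe sets) and 2 had them all below (21.7%).

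Within the sets of replicates, eIF4E6 fell by 3.19 in replicates 1 and 2 and fell by 3.32 in replicate 3, and the eIF6 values were 0.93 and 1.82. The eIF2D values were 0.64 and 0.84, and those of eIF4G2 were 0.75 and 0.69. The sign was the same in both sets for 26 of the 36 genes. The difference between the sets passed limma's test for 3 of the 36, eIF2Bgamma, eIF4B and eIF4H2, where 8.78% of all tested probe sets passed.

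**Figure D5:**
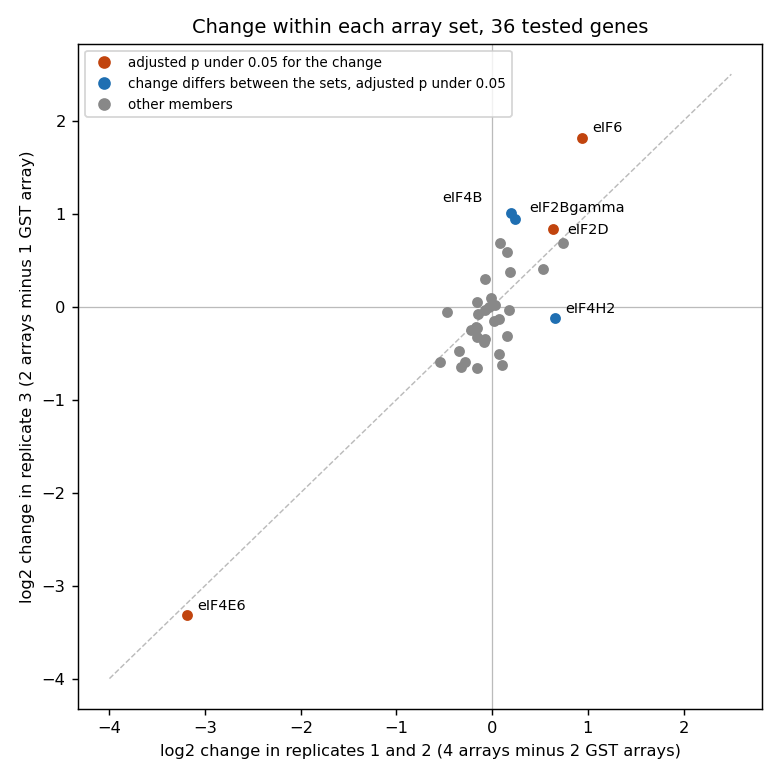
Change of each tested initiation factor gene in replicates 1 and 2 (horizontal axis) against its change in replicate 3 (vertical axis), as mean log2 of M1 and M2 minus GST. eIF4E6 lies far from the other genes, at -3.19 and -3.32, and eIF4H2 is at 0.66 and -0.12.

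Of 18 tested regulators and partners of initiation, 1 rose and 2 fell, with a median change of 0.15, where 7.85% of all tested probe sets rose and 17.4% fell. PPP1R15, which directs a phosphatase to eIF2alpha, rose by 0.47 ± 0.15 (SE; limma, adjusted p = 0.0484), from 10.57, 10.64 and 10.58 with GST to 10.88 to 11.38 in the knockdown arrays. DENR, which with MCTS1 promotes reinitiation by a mechanism related to that of eIF2D, fell by 0.67 ± 0.21 (SE; limma, adjusted p = 0.0473). DENR was at 9.79, 9.91 and 10.56 with GST, 10.51 without dsRNA, 9.53, 9.28 and 9.65 with M1, and 9.11, 9.31 and 9.60 with M2, with no overlap of the groups. Its partner MCTS1 had a change of 0.42 ± 0.21 (SE; limma, adjusted p = 0.195), so no call was made for it.

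mIF2, the mitochondrial initiation factor, fell by 1.44 ± 0.27 (SE; limma, adjusted p = 0.00521), from 5.84, 4.94 and 6.27 with GST to 4.26, 4.13 and 4.38 with M1 and 4.18, 4.38 and 4.10 with M2. Of 8 tested genes of elongation, termination and recycling, eEF5 among them, 1 fell and none rose, where 17.4% of all tested probe sets fell and 7.85% rose. The median change of the 8 was 0.00. The gene that fell was eEFSec, the selenocysteine elongation factor. It was at 5.77, 5.45 and 4.92 with GST, 5.41 without dsRNA, 3.69, 4.07 and 4.32 with M1, and 3.61, 4.25 and 3.91 with M2, and it fell by 1.40 ± 0.24 (SE; limma, adjusted p = 0.00369). The groups of eEFSec and of mIF2 did not overlap. The knockdown mean of eEFSec, 3.98, was under the filter, which it reached through the other arrays, and with no filter its adjusted p was 0.0198. Centred on the spike-in controls, 0 of the 18 and 0 of the 8 passed, where 3.45% of all tested probe sets did, and with GST replicate 2 left out of that centring 1 of each list fell, where 16.2% of all passed. With the replicate block 2 genes of these lists were added, where the share of all tested probe sets called rose from 25.3% to 43.7%. Lk6, a kinase of eIF4E, had a change of 0.45 ± 0.20 (SE; adjusted p = 0.154 without the block and 0.0412 with it). HBS1, which rescues stalled ribosomes, had a change of 0.88 ± 0.34 (SE; adjusted p = 0.0994 without the block and 0.0153 with it).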

How the data were processed

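The authors deposited log2 expression values, 1 for each probe set on each array, which GCRMA produced per the submitters' processing notes. No version or further step is given in the sources used here, and the values were used as they are. Samples were grouped by source name: the third M2 array is titled M3 but has the source name M2. The number of arrays limits the precision. The limma p-values set a difference against the spread between these samples, which without a block includes shifts between replicate numbers. The exact permutation p ranks a difference among the splits. No column of other samples was present.

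Of 18952 probe sets, 183 controls were left out. Genes were named through the platform annotation and RefSeq (Release 6), by symbol, synonym or Entrez identifier. The build behind the deposited values is likewise unstated, so no coordinates are printed. A further 3 probe sets naming an initiation factor gene and another gene were left out. Annotated overlaps touched 20 of the 36 tested genes, and their signals were not told apart.

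A mean of 4 or more over the 10 arrays was required for testing (7298 of 18769 probe sets). limma 3.58.1 (R 4.3.3) was fitted to all arrays as 4 group means, and its two-sided p-values were adjusted by Benjamini-Hochberg over the tested probe sets, with a threshold of 0.05. On simulated data for the combined comparison of 7298 probe sets, with 50 changed per size, limma recovered 4%, 38%, 80% and 92% of log2 changes of 0.5, 1, 2 and 3, with 5 false calls. The simulated noise was independent between arrays, without shifts shared by a replicate number. Far fewer probe sets changed there than were called here, so these rates need not carry over. Paralog pairs were tested by exact permutation, adjusted over 5 pairs. Same-numbered arrays correlated in all 9 pairs (at least 0.34), but so did replicates 1 and 2 across numbers (0.55 to 0.75). Pairing by number is therefore not shown by these values. The main limma fit and the main permutation use no block, and a limma fit blocked on the number is given where it changes a call. Named with values were the called genes, the eIF4E, eIF4G and eIF4A families and the genes of the pairs. Members called only with a block, and the other eIF2, eIF2B, eIF5, eIF1, eIF2A and eIF5B genes, were named after their values were seen. The members and lists were chosen with earlier results of these data known. Python 3.11.15 with matplotlib 3.10.9 drew the figures. Alternatives were another filter, centring or normalisation, other variance models, blocks, arrays left out and, added after seeing the data, median centring on the tested probe sets.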

Additional observations from a re-analysis of the deposited data

Results flagged for a closer look

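A total of 3 initiation factor genes changed differently in replicate 3 than in replicates 1 and 2 by the test of that difference in limma, which is 8.33% of the 36 tested, about the 8.78% of all tested probe sets that passed, so the count is no result about these genes. For eIF4B, the cofactor of eIF4A, the knockdown difference was 0.81 larger in replicate 3 (adjusted p = 0.0320), at 1.01 against 0.20, in the probe set with the highest mean. Its other tested probe sets gave 0.29 and 0.15 (adjusted p = 0.512 and 0.719). For eIF2Bgamma it was 0.70 larger (adjusted p = 0.0437), at 0.94 against 0.24. For eIF4H2 the difference was -0.78 (adjusted p = 0.0441), at -0.12 in replicate 3 against 0.66 in replicates 1 and 2. Replicate 3 holds 1 array per group, so each of these differences rests on single arrays. The cause was not tested.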

How the results depend on the processing

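In the comparison of M1 and M2 together with GST, the eIF4E6 fall passed in every fit that tested it (its mean is below a filter at 6), at -3.71 to -2.99 over the scalings and -3.36 to -3.11 without single arrays. eIF6 kept its direction in all, but lost its call with no filter (adjusted p = 0.0636), with spike-in centring (0.482; 0.34 when GST replicate 2 was dropped) and without GST replicate 1. eIF2D lost its call with no filter (0.14), was 0.68 (0.0531) with median centring and 0.94 (0.99) with spike-in centring, and was 0.015 (0.985) with spike-in centring without GST replicate 2.

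Shares of all tested probe sets called under the same setting moved too: for the combined comparison 25.3% became 7.53% with no filter, 3.45% and 16.2% with spike-in centring without and with GST replicate 2 dropped, 36.7% with array weights, 43.7% and 48.5% with the blocks, 38.9% with replicates 1 and 2 alone and 19.2% to 25.3% without single arrays. For M1 and for M2 these shares ran from 2.27% to 42.2% and from 1.71% to 41.3% over the settings with the threshold of 0.05. For M1 the share was 6.03% with no filter and 17.2% with a filter at 6. It was 32.1% with array weights and 34.7% with replicates 1 and 2 alone. Spike-in centring gave 2.27%, and 17.6% with GST replicate 2 dropped. For M2 the same settings gave 5.65%, 15.8%, 35%, 31.4%, 1.71% and 8.29%, and quantile normalisation 18.8%. Shares under 0.01 and with only the groups compared are not given here. The 3 calls of the combined comparison became 1 with no filter, with either spike-in centring and at an adjusted p under 0.01, 5 with array weights, 8 with the replicate block, 11 with the array-set block and 7 with replicates 1 and 2 alone. Without single arrays they were 2 to 3. The 2 calls with M1 became 1 with no filter, with a filter at 6, with either spike-in centring and under 0.01, 5 with array weights, 6 with the replicate block, 8 with the array-set block and 6 with replicates 1 and 2 alone, and 1 to 3 without single arrays. The 2 calls with M2 became 0 with spike-in centring, 1 with spike-in centring without GST replicate 2, with no filter, with a filter at 6, with quantile normalisation, with only the groups compared and under 0.01, 5 with array weights, 7 with the replicate block, 9 with the array-set block and 6 with replicates 1 and 2 alone, and 1 to 2 without single arrays. The M1 count was 1 without GST replicate 1 or 3 or M1 replicate 3, and 3 without M2 replicate 3. The M2 count was 1 without any array other than M1 replicate 3 or the array without dsRNA. Shares of all tested probe sets without single arrays ran from 14.5% to 22.4% for M1 and from 13.2% to 19.8% for M2. eIF2Bdelta passed without M1 replicate 3 (0.0442). M2 against M1 and no dsRNA against GST gave 0 in all fits run.

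Directions turned for genes that were not called. Spike-in centring moves every change by the same amount. With it, the changes became 0.020 for eIF3d1, 0.11 for eIF3f1, 0.0077 for eIF3g1, 0.057 for eIF4E1, 0.099 for eIF4EHP and 0.15 for eIF4G1. Without GST replicate 2 in that centring, which moved the median of all probe sets to -0.62, they became -0.00068 for eIF2Bdelta, -0.030 for eIF2Bgamma, -0.53 for eIF4A, -0.048 for eIF4B, -0.20 for eIF4G2 and -0.36 for eIF4H2. With array weights they were -0.0073 for eIF4A and 0.089 for eIF4EHP, and with replicates 1 and 2 alone -0.014 and 0.11. eIF4EHP was 0.055 with quantile normalisation and 0.14 with its other probe set. Without single arrays, eIF3f1 ran from -0.45 to 0.041 (above 0 without GST replicate 1 or 2 or replicate 3 of M1 or M2), eIF4EHP from -0.27 to 0.085 (without GST replicate 3) and eIF4G1 from -0.30 to 0.057 (without GST replicate 3 or M1 replicate 1).

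For the pairs, the differences without single arrays were -3.21 to -2.87 for eIF4E6, 0.65 to 1.04 for eIF4G2, -0.59 to -0.33 for CG7483, -0.12 to 0.29 for eIF4EHP and -0.24 to 0.16 for NAT1, which was -0.0035 with quantile normalisation. The calls of the first 2 pairs ended without any one GST array and within replicate numbers (-3.05 and 0.81, adjusted p = 0.0926) or replicates 1 and 2 alone (-3.11 and 0.90), designs with fewer splits, and CG7483 passed without M1 replicate 1 (0.0298). Where fewer arrays or splits, or the common shift of spike-in centring, do not account for a change, the cause was not tested. Not run, for no dsRNA against GST, were the replicate block and replicates 1 and 2 alone.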

Other observations

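The genes beside 2 of the called initiation factor genes gave values of their own. Next to eIF4E6, CG1951 had a change of 0.10 ± 0.16 (SE; limma, adjusted p = 0.735), while CG14518 was at 5.16 and 5.01 in replicate 3 of M1 and M2 and at 2.30 or less in the other arrays. Next to eIF2D, which rose, CG11882 fell by 0.80 ± 0.14 and Slbp, the histone mRNA stem-loop binding protein, fell by 0.59 ± 0.16 (SE; limma, adjusted p = 0.00447 and 0.0273). mIF3, the other mitochondrial initiation factor on the list, did not reach the filter and was listed at 4.70, 4.72 and 3.48 with GST, 3.33 without dsRNA and 3.28 to 3.33 in the knockdown arrays. These genes were named after their values were seen.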
